A study of Mus musculus with 6 samples.

Results

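A2m, Nrn1, Dpp6, Kbtbd11, Stc2, Espn and Aplp1 are 7 genes for secreted, membrane or cytoskeletal proteins, several of them best known from neurons, that were listed as near-silent in the normal embryonic ventricle and as higher in ventricles with reduced Vhl. They are 7 of the 13843 genes in the deposited table, and they were chosen by their values in knockouts 1 and 2 against the 3 controls. That difference is therefore described below without a test. The library labelled knockout 3 had no part in the choice. The study sequenced polyadenylated RNA of mouse hearts of stage E12.5 (C57BL/6), each heart being 1 library, after the atria and the valve region had been taken away. The 3 embryos labelled knockout had the genotype Vhl(flox/flox) / Nkx2.5(Cre/+), and the 3 controls Vhl(flox/flox) / Nkx2.5(+/+). All 6 thus carried floxed Vhl on both chromosomes. The Cre recombinase is made from the Nkx2-5 locus, so Vhl is cut where Nkx2-5 has been active, which is heart muscle and its progenitors above all, while other cells of the ventricle can keep it. Embryos with Cre but unfloxed Vhl were not analysed here, so that loss of Vhl and presence of the Cre allele cannot be told apart. By the labels, litter 1 gave knockout 1 and control 1, litter 2 gave knockout 2 and control 2, and the libraries numbered 3 had no littermate, the knockout being of litter 4 and the control of litter 3, whereas the design text counts 3 litters in all.

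Between 9067805 and 12592902 reads were recovered per library over the genes of the table, as assigned by the authors' processing. Values below are the deposited ones, in which reads were divided by 1 factor per library, so that 1 read was worth between 0.0808 and 0.111. They are not corrected for gene length. Vhl itself (113623959 to 113631633 of chromosome 6, GRCm38) read 11.1 and 10.3 in knockouts 1 and 2, with 34.5 in the library labelled knockout 3, against 33.7, 36.3 and 38.6 in the controls. The library labelled knockout 3 thus had Vhl at the level of the controls, against its label, and is shown apart throughout. Heart muscle genes such as Tnnt2, Actc1 and Myh7 summed to 32835 to 36450 over 8 markers in knockouts 1 and 2 and to 31430 to 38022 in the controls, which fits the labelled tissue. RNA of a whole ventricle cannot tell more cells of a type from more RNA per cell, and p-values here measure the spread between single embryos.

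The von Hippel-Lindau protein marks hypoxia-inducible factors (HIF) for destruction while oxygen is present, and without it these factors build up and raise their target genes at normal oxygen. The DNA core that HIF binds, the hypoxia response element, reads ACGTG or GCGTG. Stc2 has been described as a HIF target in human cells, and the other members are better known outside that pathway: A2m as a protease inhibitor of plasma, Nrn1, Dpp6 and Aplp1 as genes of neurons, Espn as a gene of sensory hair cells, and Kbtbd11 as 1 of a large family of BTB and kelch proteins.

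The members that move together can be set beside the DNA before their starts. No promoter window was at hand for A2m, Nrn1 and Kbtbd11, so these were not examined. RefSeq promoter windows on GRCm38.p6, from 250 bases before to 50 bases after a start, were held for Dpp6, Stc2, Espn and Aplp1. The 250 bases before the first start of each of the 4 genes are printed 5′ to 3′ along the gene's own strand, and capitals mark GCGTG or, where it lies on the opposite strand, CACGC. The Dpp6 window is chr5:26817107-26817356 on the plus strand, and the other 3 lie on the minus strand at chr11:31370062-31370311 (Stc2), chr4:152152390-152152639 (Espn) and chr7:30445583-30445832 (Aplp1).
Dpp6: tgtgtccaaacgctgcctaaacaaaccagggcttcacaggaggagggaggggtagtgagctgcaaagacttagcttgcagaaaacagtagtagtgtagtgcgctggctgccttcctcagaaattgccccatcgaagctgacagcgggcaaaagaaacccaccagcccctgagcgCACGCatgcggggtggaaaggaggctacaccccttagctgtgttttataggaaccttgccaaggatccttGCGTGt
Stc2: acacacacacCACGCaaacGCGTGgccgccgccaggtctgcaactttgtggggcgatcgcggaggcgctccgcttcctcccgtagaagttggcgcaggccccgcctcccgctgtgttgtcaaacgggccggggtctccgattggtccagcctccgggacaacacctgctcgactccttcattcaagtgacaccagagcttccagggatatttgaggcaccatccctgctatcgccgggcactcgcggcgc
Espn: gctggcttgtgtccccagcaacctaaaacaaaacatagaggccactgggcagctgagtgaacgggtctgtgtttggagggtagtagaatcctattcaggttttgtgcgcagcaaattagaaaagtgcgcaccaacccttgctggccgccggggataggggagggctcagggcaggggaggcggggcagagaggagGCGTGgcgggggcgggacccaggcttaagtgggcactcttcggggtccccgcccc
Aplp1: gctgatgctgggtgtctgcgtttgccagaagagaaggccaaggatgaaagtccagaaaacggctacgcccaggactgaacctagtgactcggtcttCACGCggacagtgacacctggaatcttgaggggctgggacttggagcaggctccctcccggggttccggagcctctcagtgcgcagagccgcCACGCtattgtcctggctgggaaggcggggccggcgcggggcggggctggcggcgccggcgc
Positions are those of a match's first base before the start. Dpp6 held GCGTG at -6 and on the opposite strand at -76. In Stc2 the pair stood at -231 and, on the opposite strand, at -240. Espn had 1 match, at -55, and Aplp1 had 2 on the opposite strand, at -154 and -62. The form ACGTG was in none of these windows. Counting every RefSeq start, 6 of the 8 windows of the 4 genes held ACGTG or GCGTG on either strand, against 43.8% of all 32851 windows of 300 bases, and 0 of 8 held ACGTG, against 19.6% of all windows. These are matches of letters and are given as a description.

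A2m (ENSMUSG00000030111, chromosome 6, 121635376 to 121679227, plus strand) encodes alpha-2-macroglobulin, a secreted protein that traps proteases of many classes. Its value was 103 in knockout 1 and 92.4 in knockout 2, with 2.75 in the library labelled knockout 3, against 0.998, 2.43 and 2.62 in controls 1 to 3. In reads, that is 1272 and 1054 in knockouts 1 and 2, against 9, 29 and 25 in the controls. Both knockouts were far above every control, with the lower knockout 35.2 times the highest control. The means differed 48.4-fold, and the log2 fold change was 5.08 ± 0.26 (SE, on log2 of the value plus 1, knockouts 1 and 2 over 3 controls). Only 2 of the 13843 genes had a higher log2 fold change, both of them annotated as processed pseudogenes. A2m was also the member with the widest spread among controls, where the highest was 2.63 times the lowest.

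Stc2 (ENSMUSG00000020303, chromosome 11, 31357307 to 31370074, minus strand), the other secreted member, encodes stanniocalcin 2, a glycoprotein that binds and blocks the protease PAPP-A and so leaves more insulin-like growth factor bound to its carriers. It had 62.7 in knockout 1 and 57.7 in knockout 2, 9.89 in the library labelled knockout 3, and 11.8, 8.89 and 7.34 in controls 1 to 3. The groups did not overlap, and the ratio of means was 6.45, with a log2 fold change of 2.59 ± 0.18. Stc2 was thus low rather than silent in controls, at 70 to 106 reads per library.

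Among the membrane proteins, Nrn1 (ENSMUSG00000039114, chromosome 13, 36725361 to 36735131, minus strand) encodes neuritin, a small protein held at the cell surface by a lipid anchor that promotes the growth of neurites. Nrn1 was at 99.0 in knockout 1 and 69.8 in knockout 2, at 1.01 in the library labelled knockout 3, and at 2.22, 2.01 and 2.62 in the controls. The 2 knockouts differed from each other 1.42-fold, the largest such ratio among the members, and yet the lower one was 26.6 times the highest control. The log2 fold change was 4.68 ± 0.18, from a ratio of means of 36.9. Fars2, a mitochondrial tRNA ligase gene, overlaps Nrn1 on the opposite strand, and the libraries did not mark strand. Fars2 itself had 30.4 and 26.6 in knockouts 1 and 2, against 26.3, 28.2 and 26.4 in the controls.

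Dpp6 (ENSMUSG00000061576, chromosome 5, 26817203 to 27727505, plus strand) encodes a membrane protein related to dipeptidyl peptidases but without their activity, which serves as a helper subunit of Kv4 potassium channels. Its values were 55.8 and 44.95 in knockouts 1 and 2, with 2.11 in the library labelled knockout 3, against 1.22, 1.76 and 2.62 in the controls. The knockouts lay at least 17.1 times above the highest control, and the means differed 27.0-fold (log2 4.18 ± 0.23). In control 3, Dpp6, Nrn1 and A2m each had 25 reads, so their values there are the same. Several pseudogenes, an antisense gene and Speer4b lie within the long Dpp6 locus.

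Aplp1 (ENSMUSG00000006651, chromosome 7, 30434982 to 30445535, minus strand) encodes amyloid precursor-like protein 1, a relative of the Alzheimer's disease protein APP that works in adhesion between neurons. It stood at 62.9 in knockout 1 and 69.6 in knockout 2, at 20.4 in the library labelled knockout 3, and at 23.2, 23.0 and 23.3 in the controls. This was the smallest difference of the 7, at 2.86-fold between the means (log2 1.47 ± 0.09), and the steadiest, since the highest control was 1.01 times the lowest. Aplp1 was not near-silent in control ventricles: its control mean of 23.2 ± 0.150 (SD, n = 3) stood at the 45.8th percentile of all genes, whose median was 27.1.

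The intracellular members are Kbtbd11 and Espn. Kbtbd11 (ENSMUSG00000055675, chromosome 8, 15011025 to 15033333, plus strand) encodes a BTB and kelch protein, a type that often brings targets to cullin 3 ubiquitin ligases. It had 52.5 and 53.5 in knockouts 1 and 2, with 5.68 in the library labelled knockout 3, against 2.55, 5.29 and 3.67 in the controls, and the controls did not overlap with knockouts 1 and 2. The means differed 13.8-fold, with a log2 fold change of 3.52 ± 0.23. An antisense gene, 5830468F06Rik, overlaps it, and its reads could not be told apart from those of Kbtbd11. Espn (ENSMUSG00000028943, chromosome 4, 152120331 to 152152371, minus strand) encodes espin, which bundles actin filaments in the stereocilia of hair cells. Espn was the lowest member, at 8.89 and 7.19 in knockouts 1 and 2, with 1.10 in the library labelled knockout 3, against 0.666, 1.01 and 0.734 in the controls. The control values rest on 6, 12 and 7 reads, against 110 and 82 reads in knockouts 1 and 2. The ratio of means was 10.02 and the log2 fold change 2.32 ± 0.21, and the groups did not overlap.

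**Figure D1:**
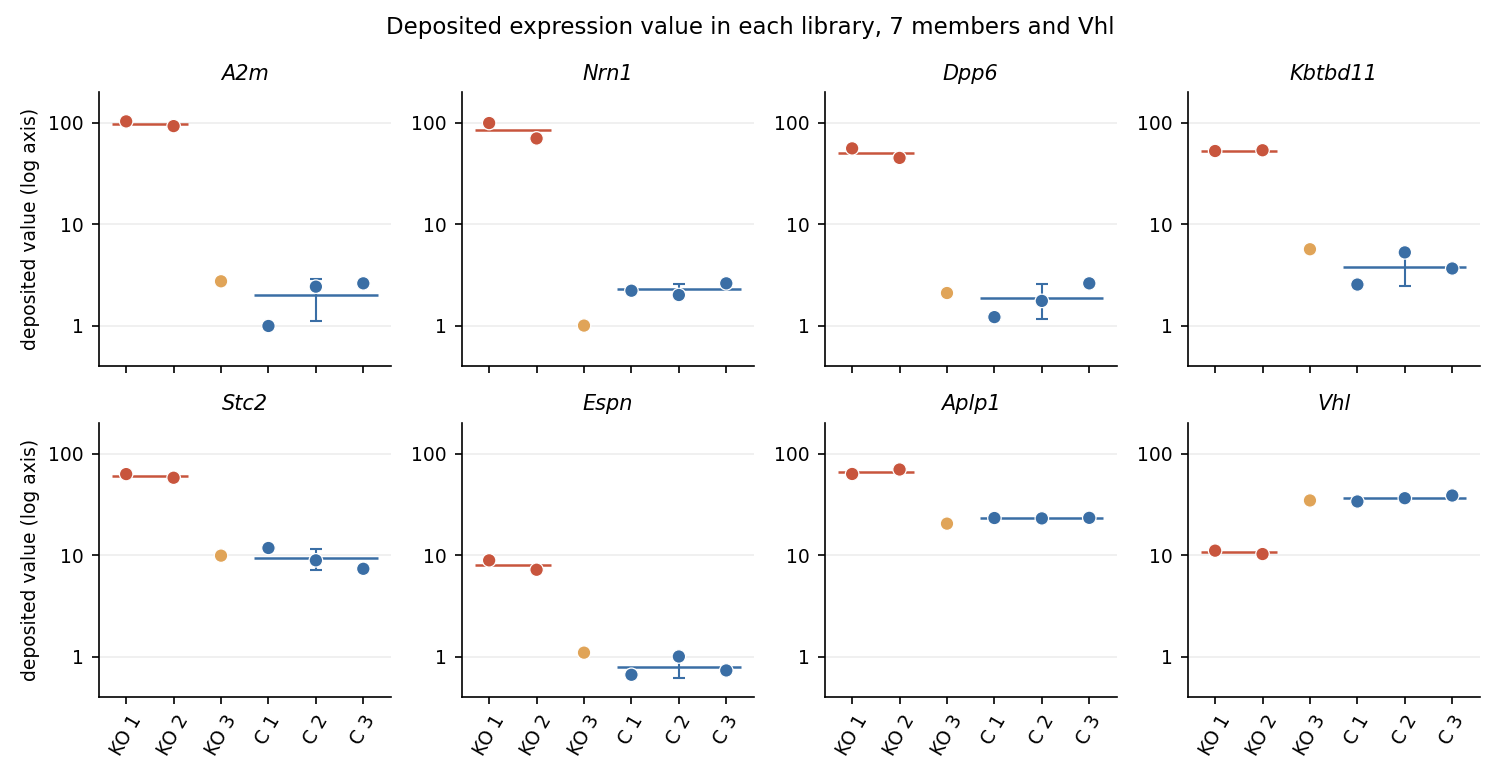
Deposited value, on a log axis, of each of the 7 members and of Vhl in knockouts (KO) 1 to 3 and controls (C) 1 to 3. Horizontal lines are the means of knockouts 1 and 2 and of the controls, and the bars on the control means are SD (n = 3). Knockouts 1 and 2 lie above all controls for every member and below them for Vhl, while the library labelled KO 3 lies near the controls in all 8 panels.

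In all 7 members the lower of knockouts 1 and 2 was above the highest control, which described 18.1% of the whole table (2509 genes), with 17% the other way. Knockout 1 was above knockout 2 in 5 of the 7, and the ratio of knockout 1 to knockout 2 ran from 0.904 for Aplp1 to 1.42 for Nrn1. The name near-silent held for some of them only: 5 had a control mean under 5, Stc2 had 9.33 ± 2.24 and Aplp1 23.2 ± 0.150 (SD, n = 3). The median log2 fold change of the 7 was 3.52, and that of all genes was -0.01. By log2 fold change over the whole table, A2m ranked number 3, Nrn1 4, Dpp6 7, Kbtbd11 10, Stc2 19, Espn 24 and Aplp1 67. Of all genes, 416 rose and 172 fell in knockouts 1 and 2 (limma, Benjamini-Hochberg adjusted p under 0.05), which is 3.01% and 1.24%. The number that rose was 219 without control 2, 259 without control 3, 146 without knockout 1 and 236 without knockout 2. The number that fell was 90 without control 1, 60 without control 2, 83 without control 3, 44 without knockout 1 and 55 without knockout 2. Since the members were listed from this same contrast, these shares are given for scale.

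**Figure D2:**
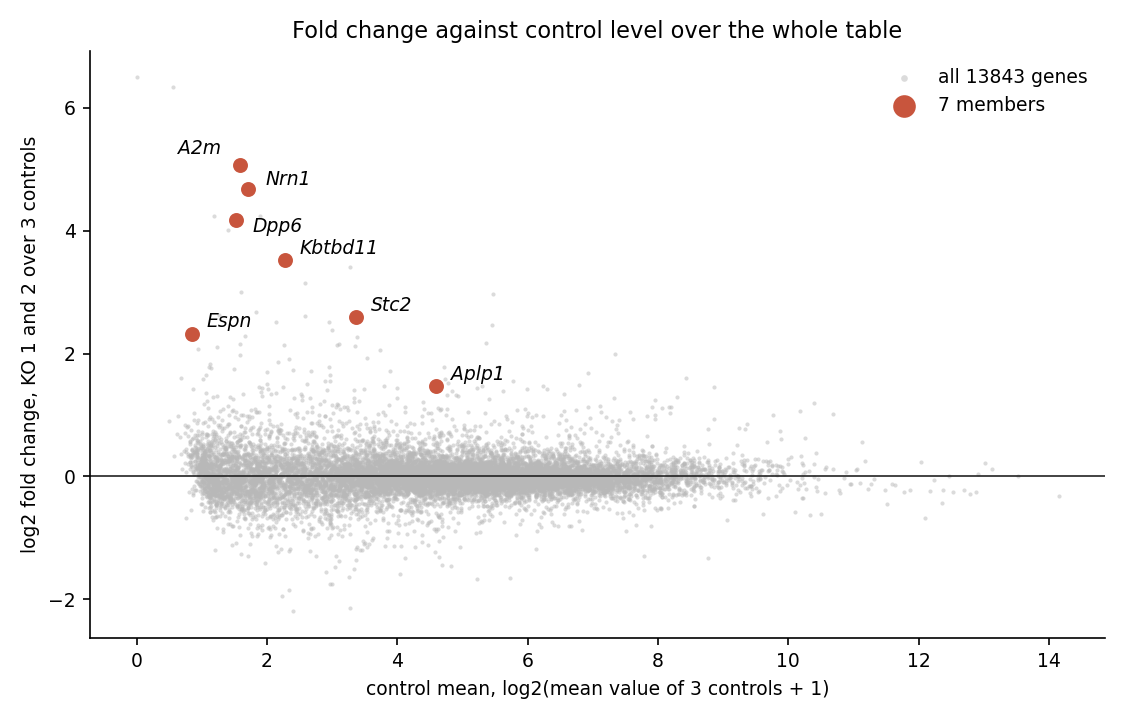
Log2 fold change of knockouts 1 and 2 over the 3 controls (on log2 of the value plus 1) against log2 of the control mean plus 1, for all 13843 genes (grey) and the 7 members (red). The members run from 1.47 for Aplp1 to 5.08 for A2m, and 6 of them have a control mean under 10.

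Per kilobase of exon, levels can be compared between genes. In knockouts 1 and 2, Nrn1 came highest with a mean of 37.5 per kilobase (44.0 and 31.1), followed by Aplp1 at 21.95, A2m at 13.9, Stc2 at 11.6, Kbtbd11 at 7.43, Dpp6 at 4.08 and Espn at 0.972, and no 2 neighbours in this order had overlapping values. In the controls the order of levels per kilobase was another one. Aplp1 led at 7.67 (range 7.62 to 7.72), then Stc2 at 1.803 (1.42 to 2.27) and Nrn1 at 1.02 (0.895 to 1.17). Below these, Kbtbd11 at 0.538 (0.358 to 0.741), A2m at 0.287 (0.142 to 0.373), Dpp6 at 0.151 (0.0988 to 0.212) and Espn at 0.0970 (0.0805 to 0.122) each overlapped in range with the next. Nrn1 was number 1 in the knockouts and number 3 in the controls, and A2m number 3 in the knockouts and number 5 in the controls.

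Within each litter the members showed the same direction. On log2 of the value plus 1, A2m was 5.70 higher in knockout 1 than in control 1 and 4.77 higher in knockout 2 than in control 2. The differences in litter 1 and litter 2 were 4.96 and 4.55 for Nrn1, 4.68 and 4.06 for Dpp6, and 3.91 and 3.11 for Kbtbd11. They were 2.32 and 2.57 for Stc2, 2.57 and 2.03 for Espn, and 1.40 and 1.56 for Aplp1. Litter 1 thus gave the larger difference in 5 of the 7, and Stc2 and Aplp1 were the exceptions.

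The library labelled knockout 3 had no part in choosing the members, and it was set apart with its Vhl value known. It was tested against the controls in a fit of 3 groups in which a lone library is assumed to vary like the others. None of the 7 members differed from the controls there at an adjusted p under 0.05 by limma or by edgeR on recovered reads, and 1 of 7 had an unadjusted limma p under 0.05. That one was Nrn1, with a log2 difference of -0.71 ± 0.24 (limma, unadjusted p = 0.0196, adjusted p = 1.00), from 11 reads in this library against 20, 24 and 25 in the controls. The log2 differences of the others were 0.36 ± 0.33 for A2m, 0.14 ± 0.29 for Dpp6, 0.50 ± 0.29 for Kbtbd11, 0.10 ± 0.23 for Stc2, 0.22 ± 0.27 for Espn and -0.17 ± 0.11 for Aplp1. A2m, Kbtbd11 and Espn were above all controls, Nrn1 and Aplp1 below them and Dpp6 and Stc2 inside their range, where over all genes 22.2% were above and 21.7% below. In this contrast 0 genes rose (0%) and 1 fell (0.00722%), with 273 at an unadjusted p under 0.05, and edgeR called 0 in either direction. The gene that fell, AA465934, was named after its value was seen: it had 3.02 in the library labelled knockout 3, against 15.3, 15.9 and 15.3 in the controls (limma, log2 -2.04, adjusted p = 0.0184). With all 6 libraries as labelled, no gene passed by limma in either direction (859 at an unadjusted p under 0.05, smallest adjusted p 0.768), and the log2 fold changes of the members in that fit ran from 0.93 ± 0.40 for Aplp1 to 3.50 ± 1.14 for A2m.

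**Figure D3:**
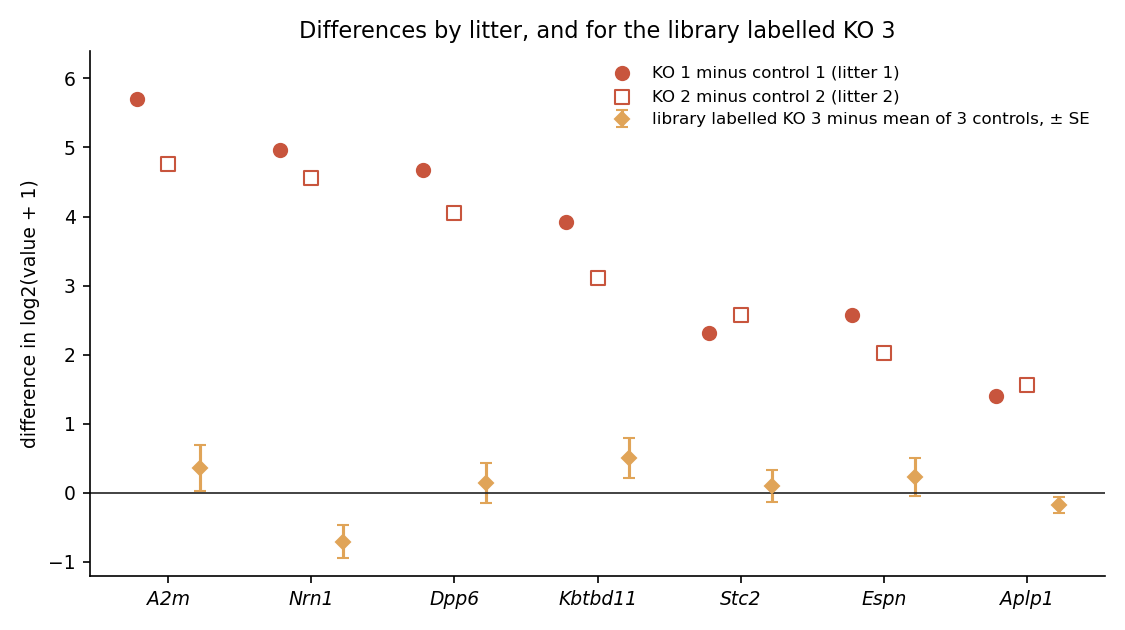
Difference in log2 of the value plus 1 for each member: knockout 1 minus control 1 (filled circles, litter 1), knockout 2 minus control 2 (open squares, litter 2), and the library labelled KO 3 minus the mean of the 3 controls (diamonds, bars are SE). The litter differences run from 1.40 to 5.70, and those of the library labelled KO 3 from -0.71 to 0.50.

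For each member, the 2 non-member genes with the nearest profile over all 6 libraries were found by the root mean square difference of log2 of the value plus 1. Other members, genes without a symbol and genes with clone names were left out of this ranking. A member can thus lie nearer to another member than the genes named here. The nearest to A2m was H2-Ab1 (0.424), a class II histocompatibility gene, which had 70.6 and 64.2 in knockouts 1 and 2, with 3.75 in the library labelled knockout 3, against 1.78, 3.61 and 2.73 in the controls. H2-Ab1 was also nearest to Nrn1 (0.608) and second to Dpp6 (0.482). Ndufa4l2, a mitochondrial gene known as a HIF target, was nearest to Dpp6 (0.454) and second to Nrn1 (0.794), at 34.3 and 46.1 in knockouts 1 and 2 against 0.666, 2.60 and 1.68 in the controls. Kbtbd11 was nearest to Rgs11 (0.330), a regulator of G protein signalling, and to Mgarp (0.362), a mitochondrial protein gene that was also second to A2m (0.808). Stc2 was nearest to the nuclear receptor gene Rora (0.274) and to H2-K1 (0.443), Espn to Stab2 (0.274) and Rasl12 (0.282), and Aplp1 to Fam57a (0.217) and Arhgef4 (0.233). Rora had 53.1 and 45.7 in knockouts 1 and 2, with 8.79 in the library labelled knockout 3, against 9.10, 9.31 and 9.86 in the controls. The H2 genes have close copies, so their values are uncertain. H2-Ab1, H2-K1 and Rgs11 also lie on chromosome 17, as does Nkx2-5, where only the embryos labelled knockout carry Cre. For these genes, loss of Vhl and the chromosome that carries Cre cannot be told apart, and neither was tested. The match is 1 of level and shape together, and it was made on the libraries that chose the members.

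Every gene of the table had a value of 1 or more in at least 3 libraries. Genes near 0 in the controls were thus held only if higher in other libraries. Espn, with controls of 0.666, 1.01 and 0.734, owes its row in part to knockouts 1 and 2. Such genes could rise but hardly fall, so rises and falls among low genes are not evenly matched. Among the 3899 genes of the table with a control mean under 10, 109 rose (2.8%) and 19 fell (0.487%) by limma, and their median log2 fold change was 0.01. The number that rose was 69 without control 2, 36 without knockout 1 and 64 without knockout 2, and 0 with all 6 libraries. The number that fell was 9 without control 2, 10 without control 3, 5 without knockout 1 and 4 without knockout 2, and 0 with all 6 libraries.

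The relatives and partners of the members were then followed, in lists chosen with earlier results of these data known. Over the 7 lists of relatives and partners, 66 genes were measured, 5 rose (7.58%) and 2 fell (3.03%) by limma at an adjusted p under 0.05, where 3.01% of all genes rose and 1.24% fell. The median log2 fold change was 0.07, against -0.01 over all genes. In the fit of litters 1 and 2 with a litter block, where 4.92% of all genes passed higher and 3.21% lower, the lists had 9 genes higher and 3 lower. With all 6 libraries they had 0.

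Among the kin of A2m, 2 of 4 measured genes rose, none fell and the median log2 fold change was 0.68. C3, the central complement component and a relative of alpha-2-macroglobulin, was at 13.0 and 13.0 in knockouts 1 and 2, with 1.10 in the library labelled knockout 3, against 0.888, 0.671 and 2.62 in the controls. Its groups did not overlap, and its log2 fold change was 2.63 ± 0.33 (limma, adjusted p = 0.00486). C3 lies on chromosome 17, as does Nkx2-5 with its Cre allele, and an effect of that allele on C3 was not tested. Cd109, a membrane-anchored member of the same family, had 12.7 and 12.8 in knockouts 1 and 2, with 5.68 in the library labelled knockout 3, against 4.66, 5.45 and 4.30 in the controls (log2 1.25 ± 0.16, limma adjusted p = 0.00530). Without knockout 1 the adjusted p of limma was 0.0605 for C3 and 0.0612 for Cd109. Lrp1, the receptor that clears alpha-2-macroglobulin bound to protease, and its chaperone Lrpap1 had log2 fold changes of -0.11 ± 0.07 and 0.11 ± 0.07 and did not pass.

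Of the list around Stc2, 2 of 11 genes rose and 1 fell, with a median log2 fold change of 0.24. Igfbp2, a carrier of insulin-like growth factors, was at 121 and 83.3 in knockouts 1 and 2, with 30.8 in the library labelled knockout 3, against 38.8, 37.8 and 32.3 in the controls. Its log2 fold change was 1.45 ± 0.16 (limma, adjusted p = 0.00251), and it passed whichever of the 5 libraries was left out. Stc1, the paralogue of Stc2, stood at 52.9 and 36.8 in knockouts 1 and 2, with 26.4 in the library labelled knockout 3, against 19.5, 22.5 and 21.7 in the controls (log2 1.02 ± 0.16, limma adjusted p = 0.0118), and its adjusted p was 0.0648 without knockout 1. Igfbp5, another carrier, had 904 and 990.0 in knockouts 1 and 2, with 1423 in the library labelled knockout 3, against 1324, 1370 and 1657 in the controls, a log2 fold change of -0.61 ± 0.12 (limma, adjusted p = 0.0326) that passed only without control 1 among the fits that left 1 library out. Pappa, the protease that stanniocalcin 2 blocks, did not pass, at a log2 fold change of 0.35 ± 0.22.

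Around Dpp6, 0 of 8 measured genes of the Kv4 channel complex and the dipeptidyl peptidase family rose and 1 fell, with a median log2 fold change of -0.10. The gene that fell was Kcnd3, which encodes Kv4.3, a pore subunit that Dpp6 can join: it had 3.80 and 4.56 in knockouts 1 and 2, with 10.5 in the library labelled knockout 3, against 11.5, 7.55 and 11.6 in the controls. Its log2 fold change was -1.10 ± 0.21 (limma, adjusted p = 0.0317), and among the fits that left 1 library out it passed only without control 2 (adjusted p = 0.0241). Kcnd2, for the pore subunit Kv4.2, was at 4.12 and 4.99 in knockouts 1 and 2 and at 9.54, 7.30 and 9.02 in the controls, with a log2 fold change of -0.79 ± 0.18 and an adjusted p of 0.0523 by limma. With litter as a block it passed, at an adjusted p of 0.0413 by limma. Kcnd1, for the pore subunit Kv4.1, overlapped between the groups, at 4.53 and 2.19 in knockouts 1 and 2 against 4.22, 2.69 and 2.83 in the controls (log2 0.00 ± 0.29). Of the 3 pore subunit genes, Kcnd3 and Kcnd2 were thus lower in each of knockouts 1 and 2 than in any control, as were 17% of all genes, and Kcnd1 was not.

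In the remaining lists few genes passed. Of 14 genes of the Kbtbd family and the cullin 3 ligase, 1 rose and none fell, with a median log2 fold change of 0.02. It was Kbtbd13, at 6.47 and 5.35 in knockouts 1 and 2, with 2.84 in the library labelled knockout 3, against 2.66, 2.85 and 2.73 in the controls (log2 0.88 ± 0.18, limma adjusted p = 0.0397), a call lost whichever of the 5 libraries was left out (adjusted p 0.0848 to 0.226). Cul3 itself had a log2 fold change of -0.12 ± 0.07. None of the 4 measured genes of the neuritin and neurotrophin list, 7 actin-bundling genes or 18 genes of the APP family and its processing passed, with medians of -0.12, 0.23 and 0.08. App was at 418 and 402 in knockouts 1 and 2 and at 374, 375 and 352 in the controls, a log2 fold change of 0.16 ± 0.07, and Aplp2, the remaining gene of that family, had 0.08 ± 0.08. Aplp1, by comparison, had 1.47 ± 0.09. The differences between members and their relatives were not tested.

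As a yardstick, 16 of 17 established HIF targets rose, where 3.01% of all genes did, none fell and their median log2 fold change was 1.35. The rises ran from 0.98 ± 0.11 for P4ha1, a collagen prolyl hydroxylase gene, to 2.68 ± 0.35 for Car12, a carbonic anhydrase gene. Kdm3a, a histone demethylase gene, had 0.16 ± 0.08 (limma, adjusted p = 0.344). Without knockout 1, Adm, Ankrd37 and Egln3 did not pass (adjusted p of limma 0.0885, 0.0784 and 0.0705), nor without knockout 2 (0.0777, 0.0640 and 0.0682). On log2 of the value plus 1, a scale that understates the change of low genes, A2m, Nrn1, Dpp6 and Kbtbd11 had fold changes above that of every gene in this list. Ndufa4l2, named above as a HIF target but outside this list, had 4.01 ± 0.31, between Dpp6 and Kbtbd11. Cox4i2 (4.24), Mgarp (3.71) and Slc2a3 (2.97), also outside the list, were likewise above every gene in it. The order thus depends on which genes were listed. The members were chosen on this same contrast, so the order is a description.

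**Figure D4:**
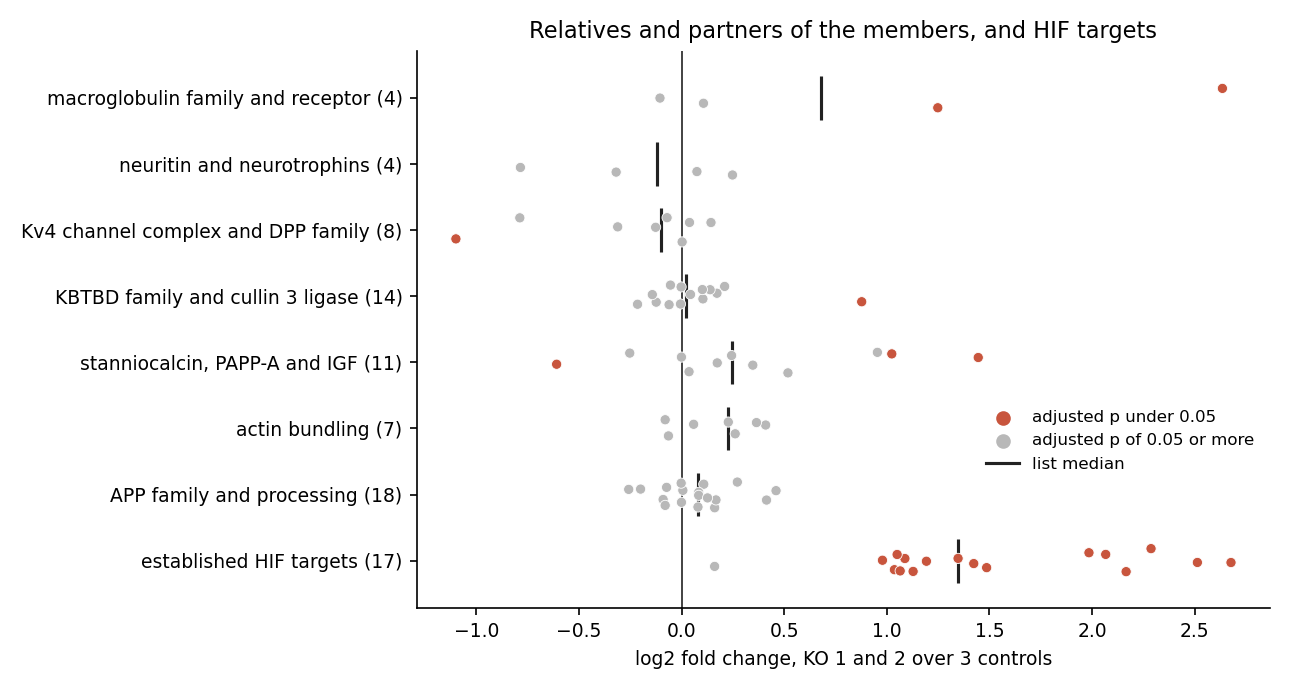
Log2 fold change of knockouts 1 and 2 over the 3 controls for each measured gene of the 7 lists of relatives and partners and of the HIF target list (number of genes in parentheses). Red points passed limma's adjusted p under 0.05, and black bars are list medians, from -0.12 for neuritin and neurotrophins to 1.35 for the HIF targets.

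Since several members are known from neurons and A2m from plasma, markers of other cell types were read beside them. Of 15 neuron markers 6 were measured, none passed, and their summed level was 29.6 to 33.6 in knockouts 1 and 2 and 29.8 to 41.6 in the controls. Most of that sum was Gap43, while the defining marker Tubb3 had 0.970 and 2.89 in knockouts 1 and 2 against 0.444, 4.53 and 2.20 in the controls, and Elavl3 had 0.242 and 0.526 against 1.33, 1.59 and 1.57. The 2 measured glial markers of 7 summed to 28.0 to 33.5 in knockouts 1 and 2 and 24.7 to 30.5 in the controls, and neither passed. Of 11 hepatocyte markers 2 were measured, summing to 9.29 to 19.4 in knockouts 1 and 2 and 16.7 to 18.4 in the controls, and Apob fell (log2 -1.75 ± 0.38, limma adjusted p = 0.0484), a call that held only without control 2 when 1 library was left out. None of 6 macrophage markers passed (summed level 31.3 to 33.1 in knockouts 1 and 2, 22.1 to 54.0 in the controls). Neuron and macrophage sums were thus not above the controls' range in either knockout, while the glial and hepatocyte sums were above it in knockout 1 and not in knockout 2.

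The summed levels of epicardial and of endothelial markers were higher in both knockouts than in every control. Of 6 epicardial markers 2 rose, and their summed level was 419 to 457 in knockouts 1 and 2, with 298 in the library labelled knockout 3, against 256 to 342 in the controls. Wt1, the transcription factor gene that marks the epicardium, had a log2 fold change of 0.74 ± 0.12 (limma, adjusted p = 0.0135), lost without either knockout (0.0782 without knockout 1 and 0.0898 without knockout 2), and Upk1b had 0.85 ± 0.19 (limma, adjusted p = 0.0490), which held only without control 3 or knockout 2. With litter as a block, a fit with 1 residual degree of freedom, 5 of the 6 rose, where 4.92% of all genes did. Of 6 endothelial markers 1 rose, Emcn (log2 0.48 ± 0.10, limma adjusted p = 0.0404), which passed only without control 1 when 1 library was left out, and the 6 summed to 1248 to 1267 in knockouts 1 and 2, with 1005 in the library labelled knockout 3, against 1079 to 1111 in the controls. The part of these cell types in the members' values was not tested.

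The members lie on 7 different chromosomes, and A2m shares chromosome 6 with Vhl, their starts being 8.01 Mb apart. Of the 55 tested genes that lie between Vhl and A2m none passed by limma at an adjusted p under 0.05, and their log2 fold changes ran from -0.55 to 0.85, the last being Depp1. With litter as a block, a fit with 1 residual degree of freedom, 3 of them fell, where 3.21% of all genes did. Within 2 Mb of A2m, 1 of 26 tested genes rose and none fell. It was Slc2a3, which encodes the glucose transporter GLUT3 and starts 1166 kb beyond A2m: it had 439 and 265 in knockouts 1 and 2, with 38.4 in the library labelled knockout 3, against 34.4, 44.1 and 51.5 in the controls. Its log2 fold change was 2.97 ± 0.22 (limma, adjusted p = 0.000465), and it passed whichever of the 5 libraries was left out.

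**Figure D5:**
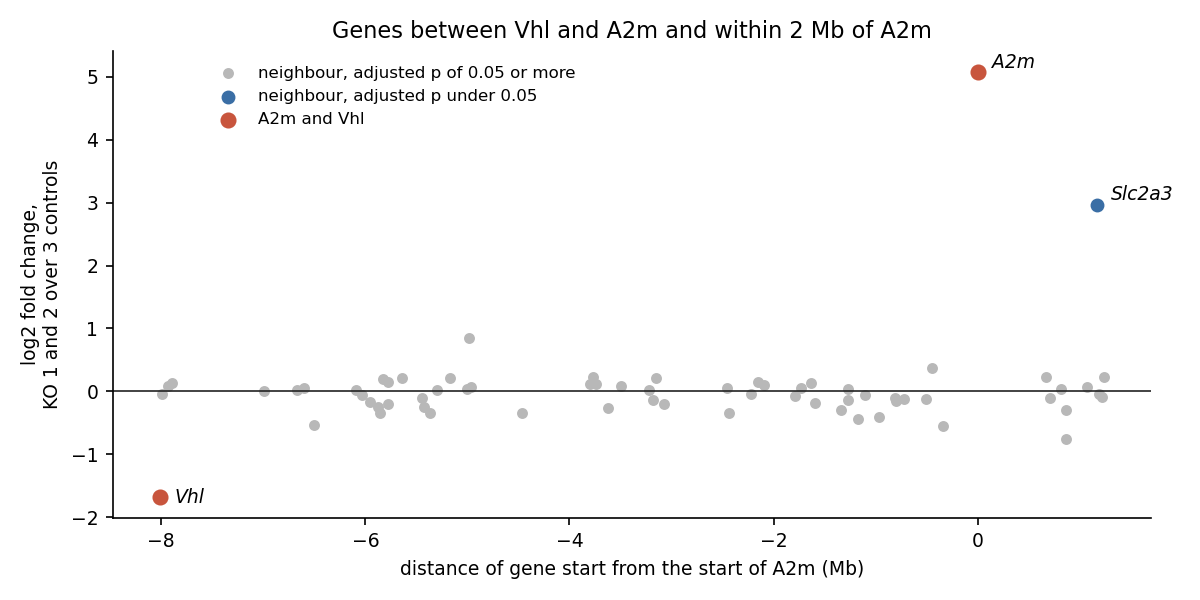
Log2 fold change of knockouts 1 and 2 over the 3 controls for the tested genes between Vhl and A2m and within 2 Mb of A2m on chromosome 6, by the distance of the gene start from that of A2m in Mb. A2m (5.08) and Slc2a3 (2.97) stand above the other genes, and Vhl lies at -1.67.

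Around the other members few neighbours passed. Within 2 Mb, 1 of 19 genes near Nrn1 rose (Ppp1r3g, a glycogen-targeting phosphatase subunit gene, log2 1.08 ± 0.20), 0 of 12 near Dpp6 passed, and 1 of 24 near Kbtbd11 fell (Gas6, a ligand of TAM receptors, log2 -0.77 ± 0.15). Near Stc2 1 of 28 rose (Snrnp25, log2 0.74 ± 0.14), near Espn 1 of 29 rose and 1 fell (Errfi1, log2 0.74 ± 0.11, and Rnf207, log2 -0.61 ± 0.11), and near Aplp1 1 of 76 fell (Hspb6, a small heat shock protein gene, log2 -0.79 ± 0.14). Over all 214 neighbours of the 7 members 4 rose and 3 fell, where 3.01% of all genes rose and 1.24% fell, and the neighbours' median log2 fold change was 0.00. Slc2a3 was the 1 neighbour that passed in all 5 fits that left out a library, Errfi1 passed in 3 of them (not without knockout 1 or knockout 2), and Gas6, Snrnp25, Rnf207 and Hspb6 in 1 each (without control 3, knockout 2, control 3 and control 3), while Ppp1r3g passed in none.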

How the data were processed

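Per the labels' protocols, polyadenylated RNA of the ventricles of 6 single embryos was made into libraries with the TruSeq v2 kit, which does not mark strand. Per the submitters' processing notes, RSEM 1.2.3, cutadapt 1.3 and CASAVA 1.8.2 were used, and the genome build was GRCm38. The authors deposited 1 table of a normalized signal for 13843 genes. Dividing each column by its smallest step gave whole numbers for 100% of values (tolerance 0.01 reads), so reads could be recovered, and the steps equalled effective library sizes of edgeR's TMM scaling at a ratio of 1. No gene had a value of 1 or more in fewer than 3 libraries. RSEM shares out reads between similar genes, so values of close copies are uncertain. The recovered reads are thus whole-number counts as assigned to the genes of the table, not all reads sequenced.

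Names and coordinates came from GENCODE M21, which gave symbols for 13675 genes and left 168 without. Because the values are normalized, limma 3.58.1 with trend (R 4.3.3) was run on log2(value + 1), over knockouts 1 and 2 and the 3 controls, with no covariate. The library labelled knockout 3 was tested in a fit of 3 groups. Genes passed at a Benjamini-Hochberg adjusted p under 0.05 over all genes. Fold changes on this scale understate those of low genes. edgeR 4.0.16 and DESeq2 1.42.0 on recovered reads, other pseudocounts (0.25 and 4), a mean of at least 5, rescaling, each library left out, all 6 libraries, and litter as a block were alternatives. On the recovered reads edgeR called 407 genes higher and 163 lower in knockouts 1 and 2. The litters of the labels pair knockouts and controls 1 and 2. Littermates' deviations from their group mean had a correlation across genes of 0.204 (litter 1) and 0.280 (litter 2). The knockout mean here included the library labelled knockout 3, and the pair numbered 3, of different litters, had 0.0125. The block fit has 1 residual degree of freedom. The tests were tested on simulated data. The members and gene lists were chosen with earlier results of these data known. Named were the members, Vhl, list genes that passed or had the smallest p, the 2 nearest profiles and passing neighbours. Per-kilobase levels divide values by the union of exons. Motifs were ACGTG and GCGTG on both strands of RefSeq windows.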

Additional observations from a re-analysis of the deposited data

How the results depend on the processing

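All 6 libraries as labelled gave 0 genes higher and 0 lower, 0 and 0 in the lists, among low genes and among neighbours, and a median log2 fold change of the members of 2.51. Litter as a block gave 681 genes higher and 444 lower over the table, 185 and 55 among low genes, and 7 neighbours higher. It changed no direction among the members. DESeq2 called 276 genes lower. A mean of at least 5 left 6 low genes lower and removed Espn. The list genes counted in this section include the HIF targets, with 21 higher and 2 lower in the main fit. Leaving out 1 library at a time gave 146 to 297 genes higher and 44 to 90 lower, 36 to 82 and 4 to 14 among low genes, 14 to 21 list genes higher and 0 to 1 lower, and 1 to 2 neighbours higher and 0 to 3 lower. In the library labelled knockout 3 it gave 0 to 2 genes higher and 0 to 1 lower, edgeR called 0 lower, and no member passed in any of these fits. The members' median of 3.52 was 3.76 with a pseudocount of 0.25, 2.88 with 4, 3.85 with a mean of at least 5 (without Espn), 3.75 by edgeR and 3.76 by DESeq2, and 3.32 to 3.73 without single libraries. Every member stayed higher in knockouts 1 and 2 under each of these settings, from 0.93 (Aplp1, all 6 libraries) to 5.57 (A2m). Differences of the library labelled knockout 3 without single libraries ran from -0.026 (without control 1) to 0.33 for Dpp6 and from -0.045 (without control 3) to 0.26 for Stc2, so both turned their sign, and the cause was not tested. With ACGTG alone as the motif, 0 of the 4 members with a promoter window matched. Depth limits Espn most, at 6 to 12 reads per control.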

Other observations

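Other genes low in controls, named after their values were seen, also had large differences. Cox4i2, a subunit of cytochrome oxidase, was at 41.6 and 37.5 in knockouts 1 and 2, with 0.916 in the library labelled knockout 3, against 0.444, 2.35 and 1.05 in the controls (log2 4.24 ± 0.32, limma adjusted p = 0.000467). Gipr, the receptor for the gut hormone GIP, had 38.8 and 40.6 in knockouts 1 and 2, with 6.59 in the library labelled knockout 3, against 6.10, 9.15 and 5.66 in the controls (log2 2.38 ± 0.19, limma adjusted p = 0.000545). Atp7b, a copper transporter gene, had 45.2 and 39.4 in knockouts 1 and 2, with 9.98 in the library labelled knockout 3, against 4.88, 8.31 and 6.92 in the controls (log2 2.51 ± 0.20, limma adjusted p = 0.000514). In each of these 3 genes both knockouts were above every control.

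The 2 genes above A2m by log2 fold change were the pseudogenes Atp6v0c-ps2, on chromosome 6 like Vhl and A2m, and Rps2-ps10, on chromosome 18. The part of the shared chromosome in the values of Atp6v0c-ps2 was not tested. Atp6v0c-ps2 had 88.3 and 90.4 in knockouts 1 and 2, with 1.92 in the library labelled knockout 3, and is listed at 0 in all 3 controls. Rps2-ps10 had 97.6 and 120.05 in knockouts 1 and 2, with 0.0916 in the library labelled knockout 3, against 0, 1.43 and 0 in the controls. Each has a close copy elsewhere in the genome, so these values are uncertain.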
